A study of Mus musculus with 6 samples.

Results

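The genes described here are the glucocorticoid receptor and 8 transcripts that glucocorticoids are known to induce. They were taken by gene symbol from the feature table of the single-cell libraries. All 9 symbols (Nr3c1, Tsc22d3, Fkbp5, Klf9, Sgk1, Ddit4, Dusp1, Mt1 and Mt2) were found, each as 1 of 31053 genes. The study altered Bmal1, a transcription factor of the circadian clock, in YUMM2.1, a transplantable mouse melanoma line. Its methods describe lentiviral lines carrying an empty vector or Bmal1 that were sorted for GFP and grown as tumors in C57BL/6 mice. They do not describe the single-cell libraries, for which the labels gave no age, sex or time of collection. The 2 groups compared were Empty vector (hashtags h1, h7 and h8) and Bmal1 WT (hashtags h3, h5 and h9), each 1 droplet library in which 3 replicates were told apart by hashtag antibodies. The files of the Bmal1 bHLH group were copies of the Bmal1 WT files in 3 of 3 cases, so they were counted once, as Bmal1 WT.

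Glucocorticoids are adrenal steroids whose blood level follows the time of day and rises with stress. The hormone binds its receptor in the cytoplasm, and the complex enters the nucleus and switches on target genes in almost every cell type. In immune cells these targets restrain inflammatory signalling, and the metallothioneins among them also answer to zinc. A comparison of the same genes in many cell types of the same replicates therefore asks whether the libraries differed in a signal that reaches the whole animal.

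DNA sequences show which of these genes carry the letters of the classical elements close to a start. The window of 250 bases before to 50 bases after each start was read from the RefSeq promoter table (GRCm38.p6), which held an entry for 8 of the 9 genes, and Nr3c1 had none. The full palindrome of the glucocorticoid response element, AGAACA, any 3 bases and TGTTCT on either strand, lay in 3 of 32851 such windows (0.00913%), and 1 of them was among the 6 windows of Sgk1. The stretch below lies at chr10:21993671-21993745 on the plus strand, within the annotated span of Sgk1, and the capitals mark the palindrome.

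Sgk1 element: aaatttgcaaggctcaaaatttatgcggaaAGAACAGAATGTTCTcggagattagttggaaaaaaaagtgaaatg

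The metallothionein genes Mt2 and Mt1 are neighbours on chromosome 8. The core of the metal response element, searched as TGCACNC or TGCGCNC on either strand, was in 25.7% of all windows. The 300-base window of Mt2 held 4 cores and that of Mt1 held 3. The 250 bases before each start are shown because melanoma cells held one transcript and hardly the other, with the cores in capitals (chr8:94172368-94172617 for Mt2 and chr8:94178839-94179088 for Mt1, plus strand).

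Mt2 upstream: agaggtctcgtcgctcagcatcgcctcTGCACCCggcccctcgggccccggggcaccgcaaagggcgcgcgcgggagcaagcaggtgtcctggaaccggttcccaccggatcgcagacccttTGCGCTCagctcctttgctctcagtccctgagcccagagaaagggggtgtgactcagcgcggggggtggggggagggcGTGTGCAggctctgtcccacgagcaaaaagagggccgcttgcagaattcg
Mt1 upstream: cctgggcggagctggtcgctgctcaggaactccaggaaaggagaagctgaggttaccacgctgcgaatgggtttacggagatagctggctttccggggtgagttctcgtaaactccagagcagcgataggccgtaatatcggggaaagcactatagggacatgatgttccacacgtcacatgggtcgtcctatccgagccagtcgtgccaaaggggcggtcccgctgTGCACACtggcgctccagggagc

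A match is a run of letters and was not tested as a site of binding.

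The source is labelled as a cell line, but most cells carried immune markers. Of 3978 Empty vector cells and 2386 Bmal1 WT cells kept, 85.8% and 80.2% were placed in a class by at least 3 of its marker genes. The classes with enough cells were T cell-like (1404 cells), NK cell-like (1479), macrophage or monocyte-like (1030), dendritic cell-like (508), fibroblast-like (383) and melanoma-like (407), and they are named below without the ending. Markers of another class were absent from the 10 leading genes of each. Of the melanoma cells 23.1% lay near the limit of their class. Median depth was 5094 unique molecular identifiers (UMIs) per Empty vector cell and 7570 per Bmal1 WT cell, and 5 barcodes occurred in both libraries. No hashtag was found on 70.6% and 74.5% of fibroblasts and on 50.9% and 65.98% of melanoma cells (Empty vector and Bmal1 WT), so replicate values of these classes rest on few cells. The h7 replicate, with 8 fibroblasts and 4 melanoma cells, was left out of those classes.

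UMIs were summed per class and replicate and are given as counts per 1000000 UMIs of that sum (CPM). Since the chemistry counts the 3′ end of a transcript, CPM is not divided by gene length. Of 54 contrasts of a gene in 1 class against the mean of the other classes, 37 passed an adjusted p of 0.05 by edgeR's quasi-likelihood test with the replicate as a block, 20 of them higher and 17 lower. The same test called 54.6% of all genes for T cells, 55.3% for NK cells, 65.9% for macrophages or monocytes, 51.8% for dendritic cells, 55% for fibroblasts and 61.7% for melanoma cells. The share among the 9 genes is therefore near that of other genes, and the levels are given as a description of where each gene is expressed.

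Nr3c1, the receptor, was present in every class and highest in T cells. Its level was 177 to 212 CPM in the 6 T cell replicates (median 193), above all replicates of the other classes. NK cells followed with 90.8 to 162 CPM. The remaining classes overlapped, from a median of 95.9 CPM in macrophages or monocytes down to 78.2 CPM in fibroblasts. T cells stood 1.05 ± 0.12 (log2, SE) above the mean of the other classes (adjusted p = 2.56e-08).

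Tsc22d3 encodes the leucine zipper protein GILZ, which binds inflammatory transcription factors. It was highest in lymphocytes, with a median of 316 CPM in NK cells and 304 CPM in T cells and overlapping ranges. Macrophages or monocytes had 112 to 185 CPM, below every T cell replicate. Fibroblasts (10.3 to 61.7 CPM) and melanoma cells (18.7 to 42.3 CPM) were lowest and did not differ beyond their spread.

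Dusp1, Sgk1 and Klf9 had their highest mean in macrophages or monocytes. Dusp1, a phosphatase that switches off MAP kinases, had 2054 to 3520.5 CPM there and at most 1201 CPM in any other class. It was lowest in melanoma cells, with 65.3 to 137 CPM and a difference of -3.07 ± 0.19 (log2, SE) from the other classes (adjusted p = 1.07e-14). Sgk1, a serum and glucocorticoid regulated kinase that acts on ion transport, had 215 to 341 CPM in macrophages or monocytes and 3.72 to 64.6 CPM in dendritic cells. Klf9, a zinc finger repressor, showed 91.4 to 187 CPM in macrophages or monocytes, overlapping fibroblasts (41.3 to 178 CPM), against 4.5 to 21.2 CPM in dendritic cells. Dendritic cells therefore had the lowest level of both Sgk1 and Klf9, and for Klf9 no other class overlapped them.

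Ddit4, an inhibitor of mTORC1 that also responds to hypoxia, had its highest mean in melanoma cells, 143 ± 48.4 CPM (SD, n = 5). Every neighbour in the order of its class means overlapped. Dendritic cells were lowest, with 2.79 to 64.4 CPM and a difference of -1.94 ± 0.32 (log2, SE, adjusted p = 5.94e-06). Fkbp5, a co-chaperone that holds the receptor in a state of low affinity for hormone, had class means with overlapping neighbours throughout. It ranged from 35.9 ± 10.3 CPM in melanoma cells (SD, n = 5) to 83.0 ± 70.9 CPM in macrophages or monocytes (SD, n = 6). Melanoma cells stood at -0.64 ± 0.27 (log2, SE) from the other classes (adjusted p = 0.0421), a call lost with a gate of 1 more marker (-0.61, adjusted p = 0.069) and with classes from clusters (-0.20, adjusted p = 0.537).

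**Figure D1:**
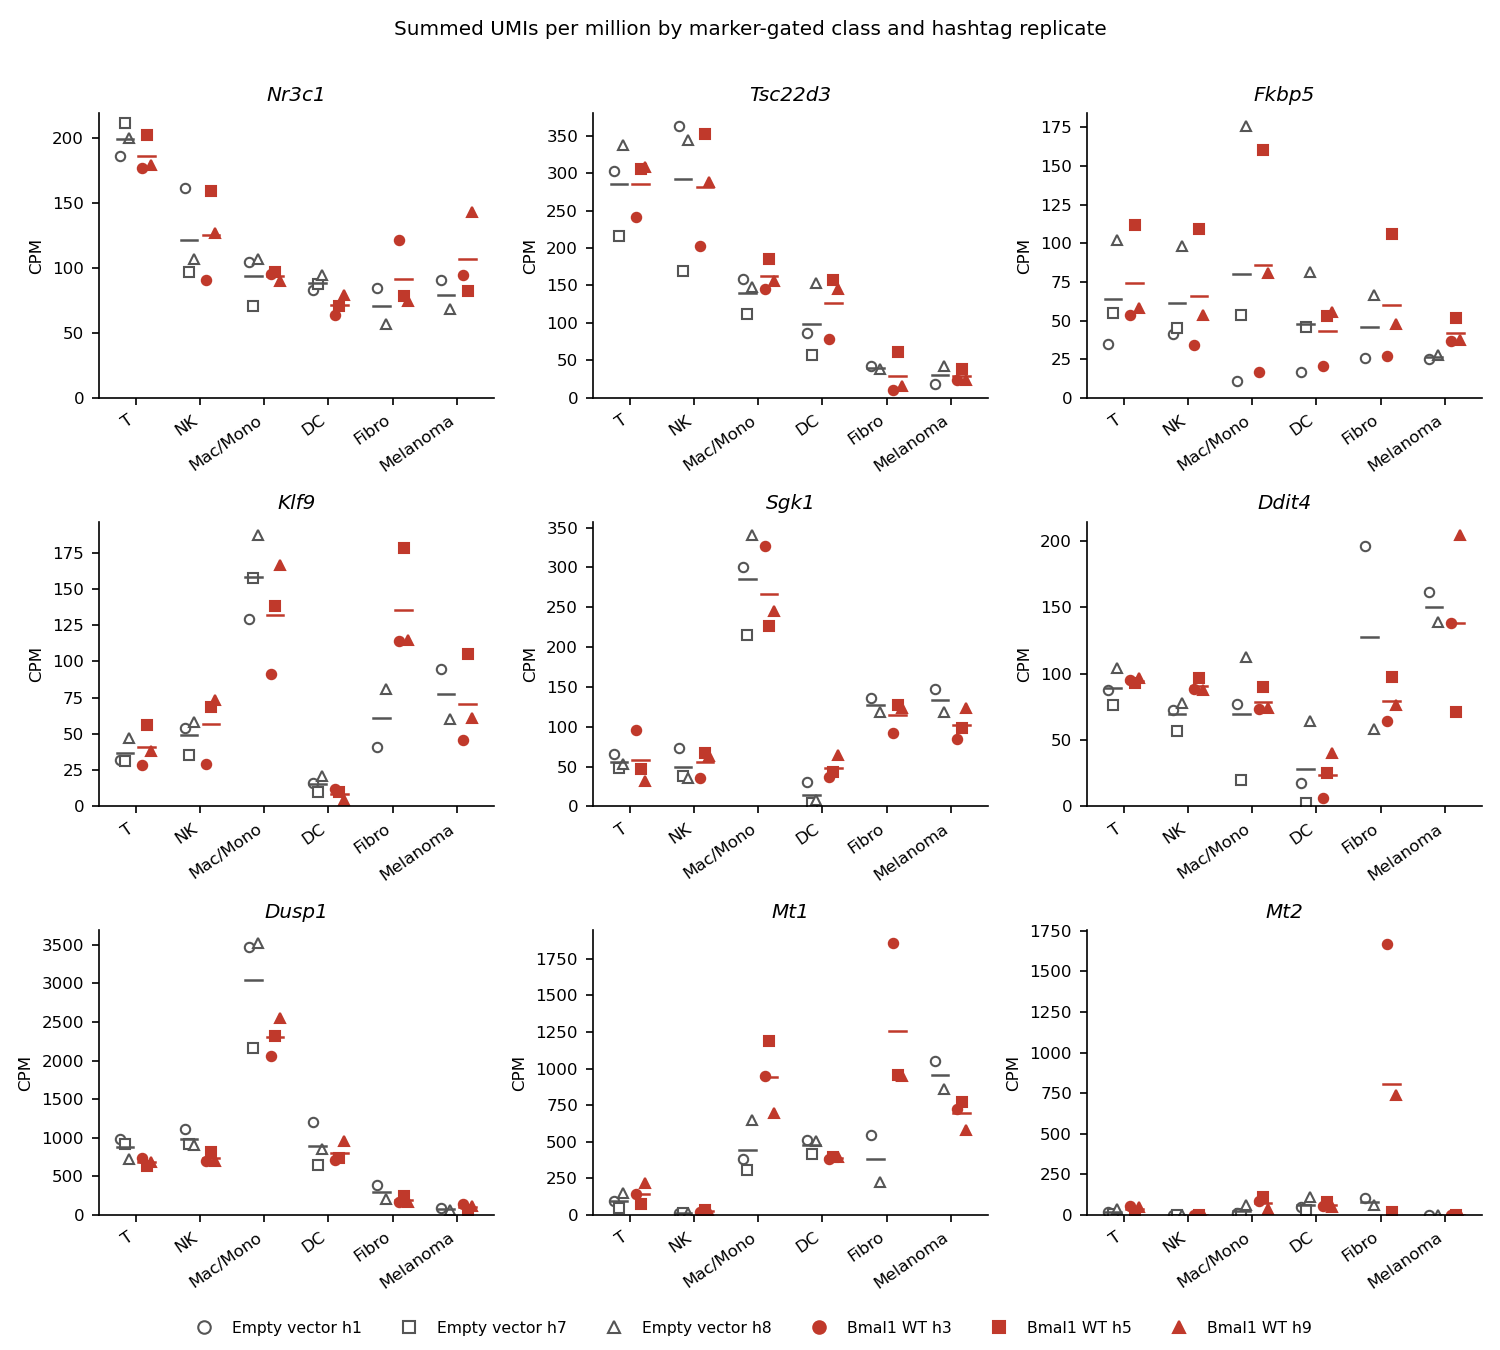
CPM (y axis, linear, from 0) of each of the 9 genes in the 6 marker-gated classes (x axis), with 1 symbol per hashtag replicate, grey open for Empty vector and red filled for Bmal1 WT, and a bar at each group mean. Dusp1 and Sgk1 stood highest in macrophages or monocytes (Mac/Mono), Nr3c1 in T cells, and Fkbp5 was spread widely within both groups.

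The metallothioneins, small proteins that bind zinc and copper, parted from each other in the tumor cells. Mt1 was at 582 to 1054 CPM in melanoma cells, as high as in fibroblasts (224 to 1854 CPM) and macrophages or monocytes (309 to 1190 CPM). Mt2 had 0 UMIs in 4 of the 5 melanoma replicates fitted and 2 UMIs in the fifth, h5 (0.544 CPM). Over all melanoma cells of a library, with or without a hashtag, Mt1 gave 3931 UMIs beside 4 of Mt2 in Empty vector, and 8825 beside 6 in Bmal1 WT. Mt2 was thus 0.102% of the UMIs of both genes in Empty vector (exact 95% interval 0.0277 to 0.260) and 0.0679% in Bmal1 WT (0.0249 to 0.148). The intervals cover counting error only.

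The same libraries gave Mt2 in plenty in other cells. Mt2 was 37.8% of the UMIs of both genes in Empty vector fibroblasts (36.1 to 39.5) and 27.5% in Bmal1 WT fibroblasts (26.8 to 28.3). In T cells it was 16.8% and 24.5%, in dendritic cells 11.4% and 14.2%, and in macrophages or monocytes 5.43% and 7.49%. Of the 116 Empty vector melanoma cells 88 held an Mt1 UMI and 1 held Mt2 UMIs. All 4 lay in this cell, which belonged to h7, the replicate left out. Of the 291 Bmal1 WT melanoma cells 247 held Mt1 and 6 held Mt2, with 1 UMI at most. Thus 0.862% (0.0218 to 4.71) and 2.06% (0.760 to 4.43) of melanoma cells had an Mt2 UMI, at a median of 20524 and 29432 UMIs per cell. NK cells, where Mt1 was also scarce, had one in 0.741% (0.321 to 1.46) and 0.500% (0.0606 to 1.79) of cells at a median of 4511 and 6371 UMIs. Reads of the genes can be told apart, since 0 of the 481 windows of 31 bases in the Mt2 transcript occurred in an Mt1 transcript of GENCODE M21.

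**Figure D2:**
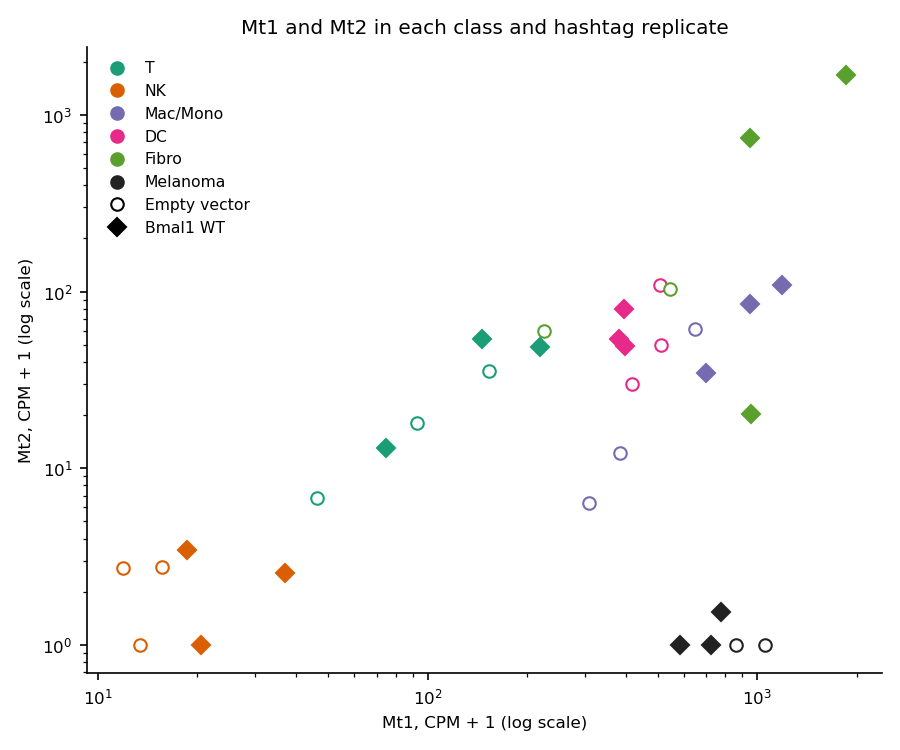
Mt1 (x axis) against Mt2 (y axis), both as CPM plus 1 on log scales, with 1 point per class and hashtag replicate, open circles for Empty vector and filled diamonds for Bmal1 WT. The 5 melanoma points sit at 582 to 1054 CPM of Mt1 with Mt2 at or near 0, apart from the other classes.

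The comparison of Bmal1 WT with Empty vector asks whether these genes moved together in every class, which is how a difference in hormone or stress between the libraries would be sought. Of the 51 tests of a gene in a class, 0 passed an adjusted p of 0.05 by edgeR, and the adjusted p ran from 0.154 to 0.999. The 3 pairs with under 100 UMIs, Klf9 in dendritic cells and Mt2 in NK and melanoma cells, were not tested. Over all genes the same test called 0.0951% in NK cells and 0% in T cells, macrophages or monocytes, dendritic cells, fibroblasts and melanoma cells. DESeq2, which called 6 to 233 genes per class, called none of the 9 genes and gave 10 of the 51 pairs no adjusted p. Each group was 1 library, so the vector and the droplet run cannot be told apart.

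At an unadjusted p under 0.05 there were 12 of 51, of which 8 were higher and 4 lower in Bmal1 WT. By class these were 1 of 9 genes in T cells, where 20.8% of all genes reached this p, 3 of 8 in NK cells (13% of all genes), 1 of 9 in macrophages or monocytes (13.9%), 2 of 8 in dendritic cells (12.5%), 3 of 9 in fibroblasts (7.24%) and 2 of 8 in melanoma cells (3.32%). The receptor was not among them. The median log2 fold change of the tested members was 0.12 in T cells, -0.003 in NK cells, 0.06 in macrophages or monocytes, -0.18 in dendritic cells, 0.38 in fibroblasts and -0.08 in melanoma cells, beside -0.09, -0.09, -0.03, -0.09, -0.05 and 0.01 for all genes. The 9 genes did not share a direction in any class.

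**Figure D3:**
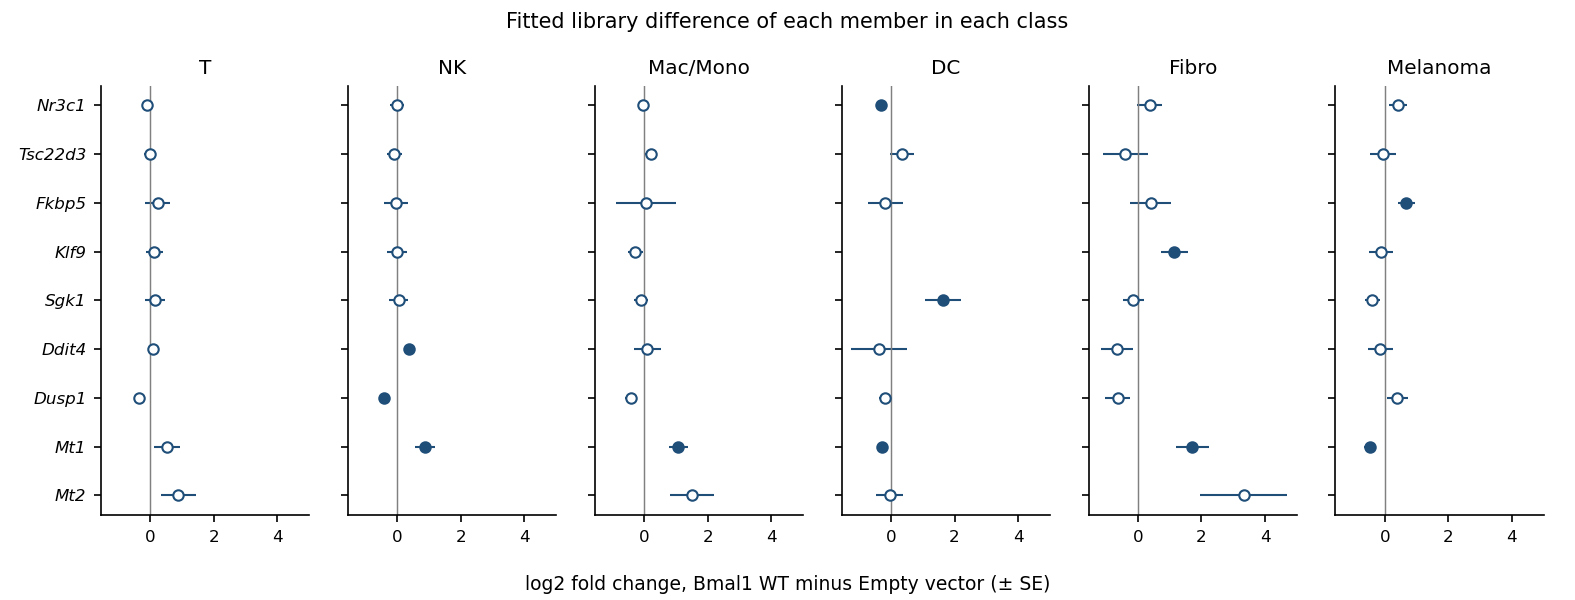
Fitted log2 fold change of Bmal1 WT minus Empty vector (x axis, bars are 1 SE) for each gene tested (y axis) in each class (panels), filled where the replicates of the groups did not overlap. No value passed an adjusted p of 0.05, and Mt1 lay right of 0 in macrophages or monocytes, fibroblasts and NK cells and left of it in dendritic and melanoma cells.

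Nr3c1 passed the test in no class. In T cells it was at 186, 212 and 200 CPM in h1, h7 and h8 of Empty vector and at 177, 202 and 179 CPM in h3, h5 and h9 of Bmal1 WT, and the groups overlapped. The log2 fold change was -0.09 ± 0.11 (SE, adjusted p = 0.665). The value in macrophages or monocytes was -0.02 ± 0.18 (adjusted p = 0.975). In dendritic cells the groups did not overlap, with 82.9, 87.5 and 94.97 CPM against 63.7, 70.5 and 79.6 CPM, but the difference of -0.32 ± 0.16 did not pass (adjusted p = 0.457).

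Tsc22d3 passed in no class as well. In T cells it was at 302, 217 and 337 CPM in h1, h7 and h8 and at 241, 305 and 308 CPM in h3, h5 and h9. In NK cells the values were 362, 169 and 344 CPM against 203, 352 and 288 CPM. In each group 1 replicate was low in both classes, h7 of Empty vector and h3 of Bmal1 WT. The fold changes were -0.02 ± 0.17 in T cells (log2, SE, adjusted p = 0.976) and -0.09 ± 0.25 in NK cells (adjusted p = 0.925), and both turned positive with TMM scaling (0.06 and 0.01).

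Dusp1 had negative fold changes in the immune classes and in fibroblasts, none of which passed the test. In NK cells it was at 1117, 915 and 912 CPM in h1, h7 and h8 and at 705, 812 and 696 CPM in h3, h5 and h9. All Bmal1 WT replicates lay below all Empty vector replicates. The log2 fold change was -0.41 ± 0.12 in NK cells (adjusted p = 0.160), -0.35 ± 0.13 in T cells (adjusted p = 0.154) and -0.40 ± 0.19 in macrophages or monocytes (adjusted p = 0.377). In fibroblasts Dusp1 was at 391 and 201 CPM in h1 and h8 and at 165, 240 and 164 CPM in h3, h5 and h9, which overlapped. Sums over all fibroblasts of a library gave a log2 ratio of -0.50 (exact 95% interval for counting error -0.62 to -0.37). The groups also overlapped in dendritic cells, where classes from clusters turned the fold change to 0.038. NK cells without any hashtag, 95 and 20 cells, had 1016 CPM (exact Poisson 95% interval 928 to 1108) in Empty vector and 738 CPM (597 to 902) in Bmal1 WT. Dusp1 is also an immediate early gene, of the kind that tissue dissociation induces. Of the 15 genes of that list, all tested in T cells, 0 passed the adjusted threshold, and 9 were lower and 0 higher at an unadjusted p under 0.05, where 12.5% of all genes were lower. At the same p, 5 of 15 were lower and 0 higher in macrophages or monocytes (7.52% of all genes lower), and 2 of 14 were lower and 0 higher in NK cells (8.75%). The latter 2, which lie near the share of all genes, were Junb (2347 ± 119 against 1749 ± 67.7 CPM, SD, n = 3 each, adjusted p = 0.0882) and Jund (940 ± 98.7 against 736 ± 148 CPM, adjusted p = 0.315), which encode parts of the transcription factor AP-1. In dendritic cells 2 of 15 list genes were lower and 0 higher at that p (560 of all 6590 genes lower). In fibroblasts 1 of 12 was lower and 0 higher (288 of all 5801 genes lower), and 8 of 12 had a positive fold change (2646 of 5801). In melanoma cells 1 of 15 was higher and 1 lower (122 and 149 of all 8171 genes). The part of dissociation in the values of Dusp1 was not tested.

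The fold change of Sgk1 was largest in the class where its level was lowest. In dendritic cells it was at 31.1, 3.72 and 8.48 CPM in h1, h7 and h8 (45, 4 and 10 UMIs) and at 37.2, 43.4 and 64.6 CPM in h3, h5 and h9. The groups did not overlap, and the log2 fold change was 1.63 ± 0.56 (SE, adjusted p = 0.315). Where its level was highest, in macrophages or monocytes, it was -0.10 ± 0.21 (adjusted p = 0.871).

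The fold change of Klf9 was largest in fibroblasts, with 41.3 and 80.6 CPM in h1 and h8 of Empty vector and 114, 178 and 114 CPM in h3, h5 and h9 of Bmal1 WT. The groups did not overlap, and the fold change was 1.15 ± 0.43 (log2, SE, adjusted p = 0.621). Fibroblasts without a hashtag, 96 and 184 cells, had 144 CPM (exact Poisson 95% interval 127 to 162) in Empty vector and 141 CPM (130 to 151) in Bmal1 WT. The fold change in macrophages or monocytes was -0.28 ± 0.24 (adjusted p = 0.636).

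Ddit4 stood in the NK cells of Bmal1 WT at 88.3, 96.6 and 87.9 CPM in h3, h5 and h9, and in those of Empty vector at 72.9, 56.9 and 78.2 CPM in h1, h7 and h8. The groups did not overlap, with a fold change of 0.39 ± 0.17 (log2, SE, adjusted p = 0.355). In T cells the groups overlapped, and the value was 0.07 ± 0.14 (adjusted p = 0.819). Elsewhere the fitted values were -0.67 ± 0.50 in fibroblasts (adjusted p = 0.825), -0.14 ± 0.40 in melanoma cells (adjusted p = 0.995) and -0.37 ± 0.88 in dendritic cells (adjusted p = 0.889). Sums over all cells of a library, with no test, gave 160 CPM in Empty vector and 88.5 in Bmal1 WT fibroblasts, a log2 ratio of -0.86 (exact 95% interval for counting error -1.02 to -0.69). The ratio was -0.59 (-0.72 to -0.46) in melanoma cells and -0.64 (-1.11 to -0.18) in dendritic cells. It was -0.07 (-0.28 to 0.14) in macrophages or monocytes, 0.04 (-0.16 to 0.23) in T cells and 0.35 (0.14 to 0.56) in NK cells. Of the hypoxia list, which shares this regulation, 0 of 7 genes tested in NK cells passed the adjusted threshold. Vegfa, an endothelial growth factor, was at 215 ± 12.9 and 144 ± 43.1 CPM (Empty vector and Bmal1 WT, SD, n = 3 each, adjusted p = 0.233), and Ndrg1, a hypoxia-induced stress gene, was at 30.3 ± 8.87 and 42.7 ± 23.0 CPM (adjusted p = 0.454). In fibroblasts 5 of 12 hypoxia genes were higher and 0 lower at an unadjusted p under 0.05 (2.28% of all genes higher), with a median log2 fold change of 0.77 beside -0.05 for all genes.

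Mt1 pointed in opposite directions in different classes. In macrophages or monocytes it was at 382, 309 and 648 CPM in h1, h7 and h8 and at 948, 1190 and 699 CPM in h3, h5 and h9. In fibroblasts it was at 544 and 224 CPM in h1 and h8 and at 1854, 957 and 951 CPM in h3, h5 and h9. In both classes every Bmal1 WT replicate fitted lay above every Empty vector replicate. The log2 fold changes were 1.08 ± 0.29 (SE, adjusted p = 0.234) and 1.71 ± 0.52 (adjusted p = 0.549).

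In melanoma cells the order was the opposite. Mt1 was at 1054 and 858 CPM in h1 and h8 of Empty vector and at 725, 773 and 582 CPM in h3, h5 and h9 of Bmal1 WT, a fold change of -0.46 ± 0.19 (log2, SE, adjusted p = 0.988). Melanoma cells without a hashtag, 59 and 192 cells, had 513 CPM (exact Poisson 95% interval 474 to 553) and 649 CPM (629 to 669). In dendritic cells Mt1 was at 509, 416 and 505 CPM against 380, 393 and 396 CPM, also without overlap (-0.29 ± 0.12, adjusted p = 0.375). Classes formed from clusters turned the value in dendritic cells to 0.09.

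In NK cells Mt1 was scarce, with 8 to 36 UMIs per replicate, or 10.9, 14.7 and 12.4 CPM in the Empty vector and 17.7, 35.9 and 19.5 CPM in the Bmal1 WT replicates. The groups did not overlap, at 0.87 ± 0.32 (log2, SE, adjusted p = 0.279), yet over all NK cells, those with several or no hashtags included, the libraries were at 22.9 CPM (19.4 to 26.9) and 24.3 CPM (19.3 to 30.2). Free RNA in the droplets was not measured, and its part in these few UMIs was not tested.

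Mt2 had positive fold changes in macrophages or monocytes and in fibroblasts, with a wide spread. In the former it was at 11.1, 5.34 and 60.2 CPM in h1, h7 and h8 and at 83.8, 108 and 33.6 CPM in h3, h5 and h9, which overlapped (1.5 ± 0.69, log2, SE, adjusted p = 0.377). In fibroblasts of Bmal1 WT it spanned 1672 CPM in h3, 19.4 CPM in h5 and 738 CPM in h9, against 102 and 58.5 CPM in h1 and h8 of Empty vector. This was the widest spread between replicates among the 246 genes with a similar number of UMIs in that class, and the fold change of 3.33 ± 1.37 did not pass (adjusted p = 0.659). Fibroblasts without a hashtag had 584 CPM (550 to 619) of Mt2 in Empty vector and 381 CPM (364 to 398) in Bmal1 WT.

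The genes of zinc and metal response other than metallothioneins gave 0 calls in all classes by edgeR, with 0 to 1 gene in either direction at an unadjusted p under 0.05. In NK cells the 2 with the lowest unadjusted p were Hmox1 and Slc39a14, of which only Hmox1 was under 0.05. Hmox1, a heme-degrading enzyme, was at 2.03 ± 1.43 and 24.9 ± 40.5 CPM (SD, n = 3 each, adjusted p = 0.105). Slc39a14, a zinc importer, was at 21.2 ± 6.0 and 16.2 ± 4.02 CPM (adjusted p = 0.657). In fibroblasts 4 of 5 genes tested had a positive fold change, as had 2646 of all 5801 genes (median 0.90 beside -0.05).

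The fold change of each gene was also compared between classes within replicates, by limma on differences of log2(CPM + 1). Of 121 such differences 0 passed an adjusted p of 0.05, and the lowest adjusted p was 0.331. Over all genes and pairs of classes 0.00233% passed. At an unadjusted p under 0.05 there were 21 of 121, where 6.07% of all differences reached this p. These include pairs that share a class and so are not independent.

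Fkbp5 varied widely between the replicates within each library. In macrophages or monocytes it was at 10.8, 53.4 and 176 CPM in h1, h7 and h8 (30, 40 and 313 UMIs). In Bmal1 WT it was at 16.7, 161 and 80.6 CPM in h3, h5 and h9 (35, 181 and 60 UMIs). The highest replicate thus stood 16.3-fold above the lowest in Empty vector (exact 95% interval for counting error 11.2 to 24.6) and 9.64-fold in Bmal1 WT (6.68 to 14.3). Between the libraries the log2 fold change was 0.06 ± 0.95 (SE, adjusted p = 0.989).

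The replicates were placed in a similar order in most other classes. In T cells Fkbp5 was at 34.6, 55.2 and 102 CPM in h1, h7 and h8 and at 53.7, 112 and 58.2 CPM in h3, h5 and h9. In NK cells it was at 41.4, 45.2 and 98.4 CPM and at 34.4, 109 and 53.7 CPM. In dendritic cells it was at 16.6, 45.6 and 81.4 CPM and at 20.5, 53.1 and 55.5 CPM. Fibroblasts gave 25.5 and 66.4 CPM in h1 and h8, and 26.9, 106 and 47.7 CPM in h3, h5 and h9. Thus h8 was the highest and h1 the lowest Empty vector replicate fitted in 6 of 6 classes, of which fibroblasts and melanoma cells had only h1 and h8. The h7 replicate left out there had 24.1 CPM in 8 fibroblasts and 29.6 CPM in 4 melanoma cells, which is below h1 and above h8, respectively. In Bmal1 WT h3 was the lowest in 6 of 6 classes, and h5 was the highest in 5 and h9 in 1. Melanoma cells showed the least of it, with 25.5 and 27.8 CPM in h1 and h8, a fold of 1.09 (0.7004 to 1.70), and 37.1, 51.7 and 37.3 CPM in h3, h5 and h9. There the Bmal1 WT replicates all lay above those of Empty vector that were fitted, by a log2 fold change of 0.67 ± 0.27 (SE, adjusted p = 0.988) that ranged from 0.30 to 0.76 over 13 alternatives. The classes of a replicate share an animal or culture and a hashtag, so they are not independent of each other.

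In macrophages or monocytes the order was also seen in the share of cells with the transcript at equal depth. Those cells or monocytes with at least 3000 UMIs were thinned to that number, which left out 26, 9 and 19 Empty vector and 12, 11 and 11 Bmal1 WT cells. An Fkbp5 UMI then remained in 1.38% (exact 95% interval 0.378 to 3.51), 13.9% (6.87 to 24.1) and 31.1% (24.6 to 38.2) of cells in h1, h7 and h8. In h3, h5 and h9 the shares were 1.75% (0.363 to 5.04), 34.7% (23.9 to 46.9) and 28.1% (17.0 to 41.5). Without thinning they were 7.94%, 34.6% and 50.7%, and 15.3%, 57.8% and 48.5%. Thinned NK cells gave 10.3%, 10.2% and 25.6%, and 9.90%, 25.0% and 12.3%, with h1 and h7 level. In T cells the shares were 9.32%, 17.0% and 23.2%, and 11.7%, 25.3% and 9.68%, so that h9 and not h3 was lowest. The order also differed in dendritic cells, where h3, h5 and h9 had 10.3%, 13.0% and 3.33%, and in melanoma cells, where h1 had 11.5% and h8 had 0% of 20 cells. Intervals of h3 and h9 overlapped in both T and dendritic cells, as did those of h1 and h8 in melanoma cells.

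Set beside other genes, Fkbp5 was among the most variable in macrophages or monocytes. Its SD within groups was 1.80 on the log2 scale, and 4 of the 1687 genes with a similar number of UMIs had a larger one. Ranked by the smaller of its log2 differences between h8 and h1 and between h5 and h3, Fkbp5 took place 1 of 7092 genes there (3.91 and 3.19), place 10 of 8237 in T cells (1.54 and 1.04) and place 5 of 7362 in NK cells (1.23 and 1.64). These replicates were picked on Fkbp5 itself, which favours its place. After it in macrophages or monocytes came F7, coagulation factor VII (2.37 and 1.99), and Mmp12, a macrophage elastase (2.33 and 1.89), both named after their values were seen.

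**Figure D4:**
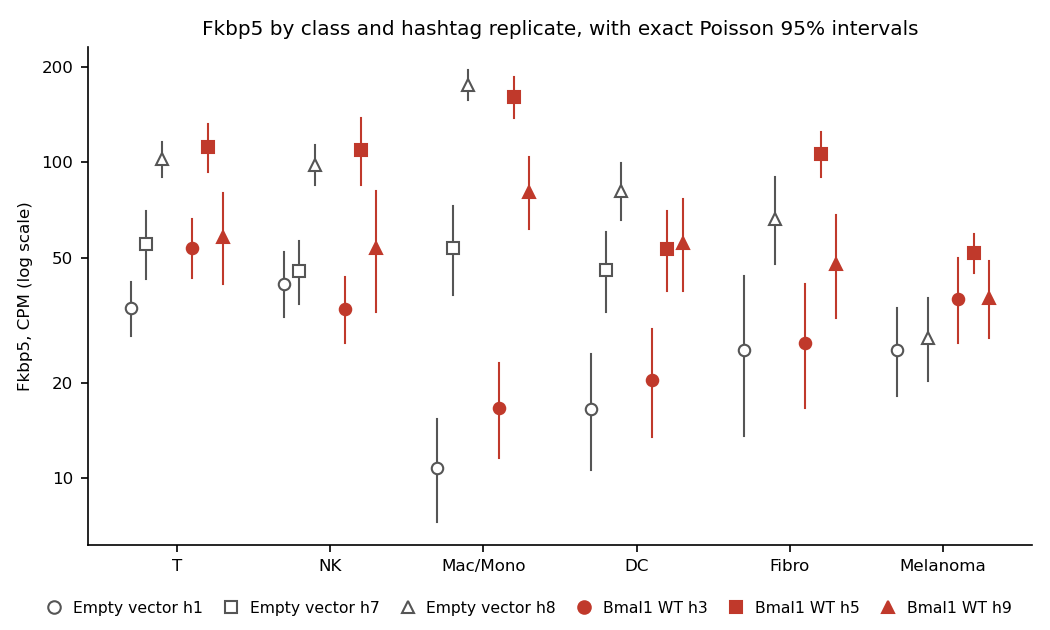
Fkbp5 CPM (y axis, log scale) in each class (x axis) for every hashtag replicate fitted, grey open for Empty vector and red filled for Bmal1 WT, with exact Poisson 95% intervals. The replicates h1 and h3 were lowest of the fitted replicates of their group in all 6 classes, of which 2 lack h7, and in macrophages or monocytes they lay at 10.8 and 16.7 CPM against 176 CPM in h8.

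The same 2 differences were taken for the other members. For macrophages or monocytes 6 of 8 were positive in both pairs, 0 were negative in both and 2 were mixed. Mt2 (2.33 and 0.37), Mt1 (0.76 and 0.33), Klf9 (0.53 and 0.59) and Ddit4 (0.54 and 0.29) were positive, and Nr3c1 (0.03 and 0.02) and Dusp1 (0.02 and 0.18) were close to 0. Ranked by the smaller difference, Nr3c1 and Dusp1 took places 1376 and 1387 of 7092 genes. Most genes were thus close to 0 or negative in at least 1 pair. Tsc22d3 (-0.11 and 0.35) and Sgk1 (0.18 and -0.53) were mixed. For T cells 3 of 8 were positive in both pairs, among them Klf9 (0.55 and 0.95), and 2 were negative in both, Sgk1 (-0.30 and -1.04) and Dusp1 (-0.45 and -0.23). Of the 13 other induced genes tested in macrophages or monocytes, 4 were positive in both pairs, 2 negative in both and 7 mixed, and in T cells these were 3, 8 and 3 of 14. For NK cells 3 of 7 members were positive in both pairs, 0 negative in both and 4 mixed. Among the 12 other induced genes there, 4 were positive in both, 1 negative in both and 7 mixed. Il1r2, a decoy receptor for interleukin-1, was the largest positive one in macrophages or monocytes (0.99 and 1.27), and Cxcr4, a chemokine receptor, was among the mixed (0.04 and -1.23), both named after their values were seen. The places of members and other induced genes bound the number of all genes positive in both pairs. This number was at least 1387 and under 2168 of 7092 in macrophages or monocytes. In T cells it was at least 2119 and under 2473 of 8237, and in NK cells at least 926 and under 1801 of 7362. The counts of members were not tested against these.

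Further lists of the pathway were counted by the same test of Bmal1 WT against Empty vector, and none of their genes passed an adjusted p of 0.05 in any class. Of 18 other induced genes, 14 were tested in T cells with 0 higher and 1 lower at an unadjusted p under 0.05 (12.5% of all genes lower). The fold change was negative for 14 of 14, as for 5013 of all 8237 genes (median -0.32 beside -0.09 for all genes). It was negative for 9 of 13 in macrophages or monocytes (3780 of all 7092 genes) and 9 of 12 in dendritic cells (4019 of 6590). For fibroblasts this was 5 of 12 (3155 of 5801) and for melanoma cells 8 of 12 (3978 of 8171). In NK cells 12 were tested, and 6 were higher and 6 lower (median 0.03). There Cebpb, a transcription factor of inflammation, was at 303 ± 75.3 and 239 ± 54.2 CPM (SD, n = 3 each, adjusted p = 0.436), and Nfkbia, the inhibitor of NF-kB, at 246 ± 20.8 and 287 ± 26.4 CPM (adjusted p = 0.440).

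Of the receptor's chaperones and coregulators, 10 of 11 were tested in NK cells, with 1 higher and 1 lower at an unadjusted p under 0.05 (4.22% of all genes higher and 8.75% lower). Hsp90ab1, the chaperone that holds the receptor ready for hormone, was at 1259 ± 148 and 1560 ± 346 CPM (SD, n = 3 each, adjusted p = 0.375). Ncoa2, a coactivator, was at 92.2 ± 8.91 and 69.0 ± 12.4 CPM (adjusted p = 0.286). In T cells 3 of 10 genes of this list were higher and 1 lower at that unadjusted p (684 and 1029 of all 8237 genes). The other classes had 0 or 1 gene in either direction.

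Inflammatory genes that glucocorticoids repress showed 0 higher and 2 lower of 5 tested in NK cells at that p (8.75% of all genes lower). These were the chemokines Ccl4 (1070 ± 349 and 669 ± 43.3 CPM, SD, n = 3 each, adjusted p = 0.153) and Ccl3 (160 ± 40.6 and 85.9 ± 36.7 CPM, adjusted p = 0.205). The other classes had 0 or 1 gene in either direction at that p.

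Clock genes bear on the time of day. In NK cells 8 of 17 were tested, and 5 were lower and 0 higher at an unadjusted p under 0.05 (8.75% of all genes lower). There 8 of 8 were negative, as were 4634 of all 7362 genes. The median log2 fold change was -0.40 beside -0.09 for all genes. Nr1d2, the repressor REV-ERB beta, was at 30.1 ± 4.2 CPM among Empty vector and 11.2 ± 1.35 CPM among Bmal1 WT replicates (SD, n = 3 each, adjusted p = 0.0611), and Tef, an output factor, was at 21.7 ± 6.45 and 7.58 ± 6.25 CPM (adjusted p = 0.286). In T cells 10 of 10 were negative, as were 5013 of all 8237 genes. At that p 3 were lower and 0 higher (12.5% of all genes lower, median -0.41). By sign alone, 4 of 6 were negative in macrophages or monocytes, 3 of 5 in dendritic cells and 2 of 6 in fibroblasts. In melanoma cells 4 of 14 were higher and 0 lower at that p (median 0.45), where 1.49% of all genes were higher. Since the groups were 1 library each, the time of collection cannot be told apart from the vector.

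Some genes shared the class pattern of a member, by Pearson's r of log2(CPM + 1) over 12 sums of 6 classes and 2 libraries, which share libraries and depth. Nearest to Nr3c1 were Bcl11b, Cd3e and Cxcr6 (0.971, 0.971 and 0.965), and to Tsc22d3 Ly9, Cd37 and Fam78a (0.989, 0.986 and 0.983). Nearest to Dusp1 were Jarid2, Ifi209 and Fcgr3 (0.978 to 0.977). Klf9 lay nearest to Rbms1, H13 and Flna (0.953, 0.952 and 0.951), Ddit4 to Prkce, Smim15 and Pdlim1 (0.948, 0.944 and 0.941), and Mt1 to Plin3, Cmtm3 and Arhgef11 (0.962, 0.959 and 0.959). The lowest values were those of Mt2, with Plxdc1, Tnfsf13b and Enah (0.919, 0.915 and 0.907), and of Fkbp5, with 2810474O19Rik, Heatr1 and Cdkn2d (0.901, 0.896 and 0.893). Among the members themselves the nearest were Klf9 and Sgk1 (0.836).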

How the data were processed

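Raw UMI counts per gene and cell barcode were deposited by the authors, made with Cell Ranger 6.1.2 per the file headers and on mm10 per the labels. The members, lists and classes were chosen with earlier results of these data known. Barcodes with at least 200 genes and at most 20% mitochondrial UMIs were kept (4147 and 2785 deposited barcodes, 34232927 and 39561569 UMIs in Empty vector and Bmal1 WT). A mixture of 2 Gaussians per hashtag assigned replicates. Cells with several hashtags, taken as doublets, entered no replicate but stayed in the library sums, and no other doublet caller was run. A cell took the class with the largest share of its markers detected, of at least 3. UMIs were summed per class and hashtag replicate of at least 10 cells, and genes with at least 100 UMIs were tested with edgeR 4.0.16 (quasi-likelihood, total UMIs as library size, Benjamini-Hochberg over all genes of a class). limma 3.58.1 tested differences between classes with a pseudocount of 1, and DESeq2 1.42.0 was an alternative. Steps were tested on simulated data. Replicates are hashtags, whose separate origin the labels do not state, so p-values measure the spread between them. Named were all 9 members in every class, and of each other list the genes past an adjusted p of 0.05 and the 2 with the lowest unadjusted p in NK cells, the class with most cells. For likeness, the 3 genes with the highest r among genes with at least 100 UMIs in each library were named, except that the result for Sgk1 is not reported here. No Bmal1 bHLH library was analysed here. Clusters, a stricter cell filter (500 genes, 10% mitochondrial UMIs), a gate of 4 markers, other scalings and leaving out each replicate were alternatives. The thinning of Fkbp5, the Mt2 counts over all melanoma cells and class pairs without T cells were added after values had been seen.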

Additional observations from a re-analysis of the deposited data

Results flagged for a closer look

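Mt1 stood out because every Bmal1 WT replicate fitted lay above Empty vector in some classes and below it in others. The difference of its log2 fold change (Bmal1 WT minus Empty vector) was tested within replicates by limma, with pairs added after the values had been seen. It was -1.11 for dendritic minus NK cells (adjusted p = 0.928), -1.40 for melanoma minus NK cells (adjusted p = 0.756), -1.40 for dendritic cells minus macrophages or monocytes (adjusted p = 0.355) and -1.36 for melanoma cells minus macrophages or monocytes (adjusted p = 0.361). It was 2.14 for fibroblasts minus dendritic cells (adjusted p = 0.622) and -2.23 for melanoma cells minus fibroblasts (adjusted p = 0.692). None of these 6 differences passed over all genes. How often other genes separate without overlap in this way was not counted. Fibroblasts and melanoma cells had only 2 Empty vector replicates in the fit. Mt1 in melanoma cells without a hashtag went the other way. There the log2 ratio was 0.34 (exact 95% interval for counting error 0.22 to 0.46). With classes from clusters the fold change of Mt1 in dendritic cells was positive (0.09).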

How the results depend on the processing

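Of 678 repeats of the fold changes of the 9 genes, 584 kept the sign and stayed above an adjusted p of 0.05, 87 changed the sign and 7 fell below it, all 7 without the filter on genes. Another 10 had no adjusted p from DESeq2. The sign held in every repeat for 23 of 51 fold changes, and for 11 of the 12 with an unadjusted p under 0.05. No paired analysis was possible because the groups share no hashtag. Depth limits Mt2 in NK and melanoma cells and Klf9 and Sgk1 in dendritic cells, and the few tagged fibroblasts and melanoma cells limit those classes. The causes of the changes below were not tested.

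Genes called per class, 7 in NK cells and 0 elsewhere by edgeR, moved with the setting. With TMM scaling they were 127 in T cells and 4 in NK cells. With no filter on genes they were 710 in T cells, 209 in NK cells, 224 in macrophages or monocytes, 127 in dendritic cells and 308 in fibroblasts. With DESeq2 they were 233 in T cells, 105 in NK cells, 20 in macrophages or monocytes, 53 in dendritic cells, 19 in fibroblasts and 6 in melanoma cells. With the mean of each cell's CPM and limma they were 130 in T cells, 21 in NK cells and 2 in dendritic cells. With classes from clusters they were 431 in T cells, 4 in NK cells, 1 in dendritic cells and 1 in fibroblasts. With hashtags by the highest centred log count they were 31 in T cells and 0 in NK cells. With a stricter cell filter they were 13 in NK cells. Leaving out 1 replicate gave 0 to 43 in T cells (43 without h8 of Empty vector, 1 without h1) and 0 to 92 in NK cells (92 without h7, 11 without h8 and 0 without h1 of Empty vector, 3 without h3, 0 without h5 and 1 without h9 of Bmal1 WT).

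The log2 fold changes that changed sign were as follows. With the mean of each cell's CPM and limma they came to 0.037 for Nr3c1, 0.012 for Tsc22d3 and -0.18 for Sgk1 in T cells, 0.021 for Nr3c1 and 0.11 for Tsc22d3 in NK cells, 0.83 for Tsc22d3 in melanoma cells, 0.036 for Ddit4 and 0.49 for Mt2 in dendritic cells and 0.49 for Ddit4 in fibroblasts. With TMM scaling they came to 0.086 for Nr3c1, 0.014 for Tsc22d3 and 0.049 for Fkbp5 in NK cells, 0.060 for Tsc22d3 in T cells and 0.040 for Mt2 in dendritic cells. With DESeq2 they came to 0.12 for Nr3c1 and 0.050 for Tsc22d3 in NK cells and 0.060 for Tsc22d3 in T cells. With a stricter cell filter they came to 0.004 for Nr3c1 and -0.030 for Klf9 in NK cells. With classes from clusters they came to 0.089 for Nr3c1 in macrophages or monocytes, 0.103 for Fkbp5, 0.038 for Dusp1 and 0.092 for Mt1 in dendritic cells, -0.046 for Klf9 and -0.16 for Sgk1 in T cells, 0.105 for Klf9 in melanoma cells and 0.49 for Ddit4 in fibroblasts. With hashtags by the highest centred log count they came to -0.35 for Nr3c1 and 0.047 for Tsc22d3 in melanoma cells, 0.078 for Tsc22d3 in fibroblasts, -0.037 for Fkbp5 in macrophages or monocytes and 0.079 for Mt2 in dendritic cells. With a gate of 1 more marker they came to 0.005 for Tsc22d3 in T cells, 0.19 for Fkbp5 in dendritic cells, -0.055 for Fkbp5 in fibroblasts, -0.028 for Klf9 and -0.042 for Sgk1 in NK cells and 0.031 for Ddit4 and -0.18 for Dusp1 in melanoma cells. Of the contrasts between classes, Nr3c1 in macrophages or monocytes turned to 0.14 with TMM scaling, Tsc22d3 in dendritic cells turned to -0.038 with classes from clusters, Ddit4 in macrophages or monocytes turned to 0.32 with TMM scaling, Ddit4 in macrophages or monocytes turned to 0.21 with a gate of 1 more marker and Ddit4 in macrophages or monocytes turned to 0.19 with classes from clusters. With a pseudocount of 10, the difference between classes turned to -0.054 for Ddit4 (dendritic cell minus T cell) and 0.010 for Fkbp5 (fibroblast minus macrophage or monocyte).

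Leaving out 1 replicate at a time changed the sign of further fold changes, whose ranges were -0.24 to 0.26 for Nr3c1, -0.36 to 0.14 for Tsc22d3, -0.65 to 0.51 for Fkbp5, -0.25 to 0.51 for Klf9 and -0.16 to 0.49 for Sgk1 in NK cells. In macrophages or monocytes they were -0.17 to 0.072 for Nr3c1, -0.904 to 1.631 for Fkbp5, -0.28 to 0.045 for Sgk1 and -0.26 to 0.57 for Ddit4. In T cells they were -0.17 to 0.12 for Tsc22d3, -0.205 to 0.78 for Fkbp5, -0.21 to 0.38 for Klf9, -0.47 to 0.38 for Sgk1 and -0.016 to 0.198 for Ddit4. In fibroblasts they were -0.49 to 0.001 for Tsc22d3, -0.33 to 1.259 for Fkbp5 and -1.301 to 0.45 for Ddit4. In melanoma cells they were -0.52 to 0.66 for Tsc22d3, -0.53 to 0.25 for Klf9 and -0.55 to 0.19 for Ddit4. In dendritic cells they were -0.61 to 0.46 for Fkbp5, -0.96 to 0.17 for Ddit4, -0.37 to 0.093 for Dusp1 and -0.37 to 0.61 for Mt2.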
